A study of Homo sapiens with 6 samples.

Results

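The genes described here encode box H/ACA small nucleolar RNAs (symbols starting with SNORA) and small Cajal body RNAs (scaRNAs, symbols starting with SCARNA) in HEK293 cells, a human embryonic kidney line. The count table listed 449 such genes among 57773 in all, and the 129 with 10 or more counts summed over the 6 libraries were taken as members, 106 SNORA and 23 SCARNA genes. Of the other 320, 265 were listed at 0 and 55 had 1 to 9 counts. Cells had received a plasmid carrying Cas9 and either no guide (EV, the empty vector), 4 guides against ZNF146 (sgZNF146) or 4 guides against ZNF507 (sgZNF507), with 2 biological replicates of each. All 3 groups went through 36 h of puromycin selection and were harvested at day 14 as whole transfected populations rather than clones, so each library mixes cells with different edits, and cells without one, in unknown shares. ZNF146 and ZNF507 are zinc finger proteins that the study examined for binding to LINE-1 retrotransposons, and the comparisons here ask how the small RNA genes read out after guides against either gene.

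Members were selected on their summed counts, so their levels are described below without a test. The count minimum used no contrast between groups, and those contrasts were tested, but the class itself was chosen with earlier results of these data known. The lowest member was a SNORA51 copy with 10 counts (ENSG00000206898), and the highest genes outside were copies of SNORA26 (ENSG00000252236) and SNORA48 (ENSG00000212214) with 9 each. Many listed genes are copies under 1 name, so the 129 members carried 96 symbols, and 59 members shared a symbol with another member. Library totals ran from 22724439 to 28524025 counts, and members took between 0.0455% and 0.0592% of them. ZNF507 fell by 34.9% in sgZNF507 against EV (log2 fold change -0.62, edgeR adjusted p = 0.00195), with 1792 and 2087 counts in EV, 1809 and 1843 in sgZNF146, and 1088 and 1411 in sgZNF507. Counts of ZNF146 were 2860 and 2915 under EV, 2517 and 2583 under sgZNF146, and 2036 and 2937 under sgZNF507. Against EV, sgZNF146 gave a value of -0.13 on the log2 scale, which did not pass the threshold. RNA level alone therefore does not verify the sgZNF146 label. The paper reports that western blots of the targeted cells showed almost no ZNF146 or ZNF507 protein. It also reports frequent insertions or deletions in RNA reads at the guide sites of both genes, which were not seen in control cells. The 6 HEK293 markers found in the table were all tested, with mean levels from 6.15 to 1041.5 CPM (counts scaled to an effective library size of 1000000), and 7 of 8 markers of other cell types lay under 1 CPM. The exception was COL1A1, listed as a fibroblast marker, at a mean of 64.2 CPM. It stood at 60.9 and 62.6 CPM in EV, 58.9 and 63.4 in sgZNF146, and 73.0 and 66.7 in sgZNF507, and was not called by edgeR. Mitochondrial MT-RNR1, a ribosomal RNA gene, stood at 1549.7 and 1672.6 CPM in EV, 133.1 and 158.4 CPM in sgZNF146, and 943.6 and 50.9 CPM in sgZNF507 (log2 fold change -3.47, SE 0.81, in sgZNF146 against EV, not called by edgeR), and MT-RNR2 gave a like order. These genes thus separated the EV libraries from both sgZNF146 libraries and differed between the sgZNF507 replicates, and their part in the results was not tested.

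Box H/ACA RNAs fold into hairpins separated by the H box (ANANNA, where N is any base) and end with the letters ACA a few bases before their 3′ end. They sit in a particle with dyskerin (DKC1), NOP10, NHP2 and GAR1, and a loop in each hairpin pairs with a target RNA so that dyskerin can convert a chosen uridine to pseudouridine. SNORA RNAs mostly guide ribosomal RNA modification in the nucleolus, whereas scaRNAs gather in Cajal bodies and guide modification of spliceosomal small nuclear RNAs. Most are cut out of introns of longer host genes rather than made from promoters of their own.

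The 8 sequences below belong to the members that the results turn on: SNORA73B, which took the largest share of counts, the 4 SNORA71 paralogs, which share a host and are set side by side, and SCARNA22, SNORA49 and SNORA79, in which the sgZNF507 libraries were the lowest pair. They are annotated gene sequences on GRCh37, 5′ to 3′, and the capitals mark the ANANNA match nearest the middle and the ACA that lies 3 bases before the end or at the end.
SNORA73B (chr1:28835071-28835274, plus strand): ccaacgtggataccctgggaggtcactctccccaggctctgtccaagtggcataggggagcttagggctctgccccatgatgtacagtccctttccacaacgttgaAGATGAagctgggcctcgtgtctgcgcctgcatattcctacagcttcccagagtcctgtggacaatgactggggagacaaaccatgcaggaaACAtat
SNORA71A (chr20:37055952-37056085, minus strand): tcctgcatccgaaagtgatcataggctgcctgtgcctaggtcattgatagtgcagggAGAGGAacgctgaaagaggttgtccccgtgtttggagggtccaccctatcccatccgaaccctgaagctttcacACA
SNORA71B (chr20:37053731-37054002, minus strand): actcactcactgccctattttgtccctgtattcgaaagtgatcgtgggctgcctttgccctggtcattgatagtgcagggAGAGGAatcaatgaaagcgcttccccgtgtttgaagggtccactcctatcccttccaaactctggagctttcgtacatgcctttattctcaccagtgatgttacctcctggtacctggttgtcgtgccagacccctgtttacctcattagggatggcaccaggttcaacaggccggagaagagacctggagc
SNORA71C (chr20:37058313-37058446, minus strand): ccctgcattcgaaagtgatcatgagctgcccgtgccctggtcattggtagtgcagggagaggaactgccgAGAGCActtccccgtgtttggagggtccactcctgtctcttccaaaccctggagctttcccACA
SNORA71D (chr20:37062508-37062641, minus strand): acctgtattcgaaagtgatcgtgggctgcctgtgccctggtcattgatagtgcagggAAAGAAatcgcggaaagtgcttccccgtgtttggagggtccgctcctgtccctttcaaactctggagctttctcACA
SCARNA22 (chr4:1976363-1976487, plus strand): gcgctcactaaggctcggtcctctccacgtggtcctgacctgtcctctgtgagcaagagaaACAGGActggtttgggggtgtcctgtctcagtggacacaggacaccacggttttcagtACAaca
SNORA49 (chr12:132515769-132515904, plus strand): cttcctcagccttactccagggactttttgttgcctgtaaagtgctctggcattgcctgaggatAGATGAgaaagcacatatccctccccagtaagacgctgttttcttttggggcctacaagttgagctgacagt
SNORA79 (chr14:20791338-20791485, minus strand): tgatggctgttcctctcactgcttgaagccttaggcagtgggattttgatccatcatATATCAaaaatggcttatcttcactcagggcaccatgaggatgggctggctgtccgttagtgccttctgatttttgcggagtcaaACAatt

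The class name was checked against these letters. The letters ACA stood exactly 3 bases before the annotated 3′ end in 84 of 129 members (65.1%), in 0 of 129 regions of the same length just downstream of them, and in 3.61% of 83 box C/D snoRNA genes with 10 or more counts. ANANNA was found in 97.7% of members but also in 87.6% of the downstream regions, so that motif alone separates little at these lengths. Of the sequences printed, SNORA73B, SCARNA22 and SNORA79 have the ACA 3 bases before the end, SNORA71A, SNORA71C and SNORA71D end with it, and SNORA71B and SNORA49 have it at neither place within their annotated ends. SNORA71B is annotated at 272 bases, against 134 for each of its 3 paralogs. Box C/D RNAs, the other large snoRNA class, carry TGATGA near the start and CTGA near the end, and 6 members held both, namely SCARNA5, SCARNA6, SCARNA7, SCARNA9, SCARNA12 and SCARNA18 (ENSG00000252139). They are therefore members by symbol whose sequence carries box C/D letters, and some scaRNAs are known to combine both classes or to be box C/D RNAs. TGAG, the short CAB-type motif that directs scaRNAs to Cajal bodies, was present in 65.2% of SCARNA members, 40.6% of SNORA members and 56.6% of the downstream regions.

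SNORA73B, a U17-type RNA that acts in cleavage of pre-ribosomal RNA rather than as a modification guide, held 30.4% of all member counts, with 4501 and 3512 counts in EV, 4394 and 5026 in sgZNF146, and 3035 and 4005 in sgZNF507. The 12 members highest by mean CPM held 76.6%. Per kilobase of annotated length, SNORA73B stood at 777 CPM, followed by SNORA71A at 273, SCARNA21 at 158, SCARNA13 at 150 and SNORA71C at 135. SCARNA9 followed at 115 CPM per kilobase, then SCARNA22 at 92.2, SNORA31 (ENSG00000253051) at 80.2, SCARNA17 at 66.6 and SCARNA18 (ENSG00000252139) at 64.0. The spread between replicates often exceeded the gap between neighbours in that order, since the median absolute difference between replicates of 1 group was 0.289 to 0.314 on the log2 scale over the 30 members with a mean of 50 or more counts. SNORA53 showed it most plainly, with 63 counts in 1 sgZNF146 library and 210 in the other.

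**Figure D1:**
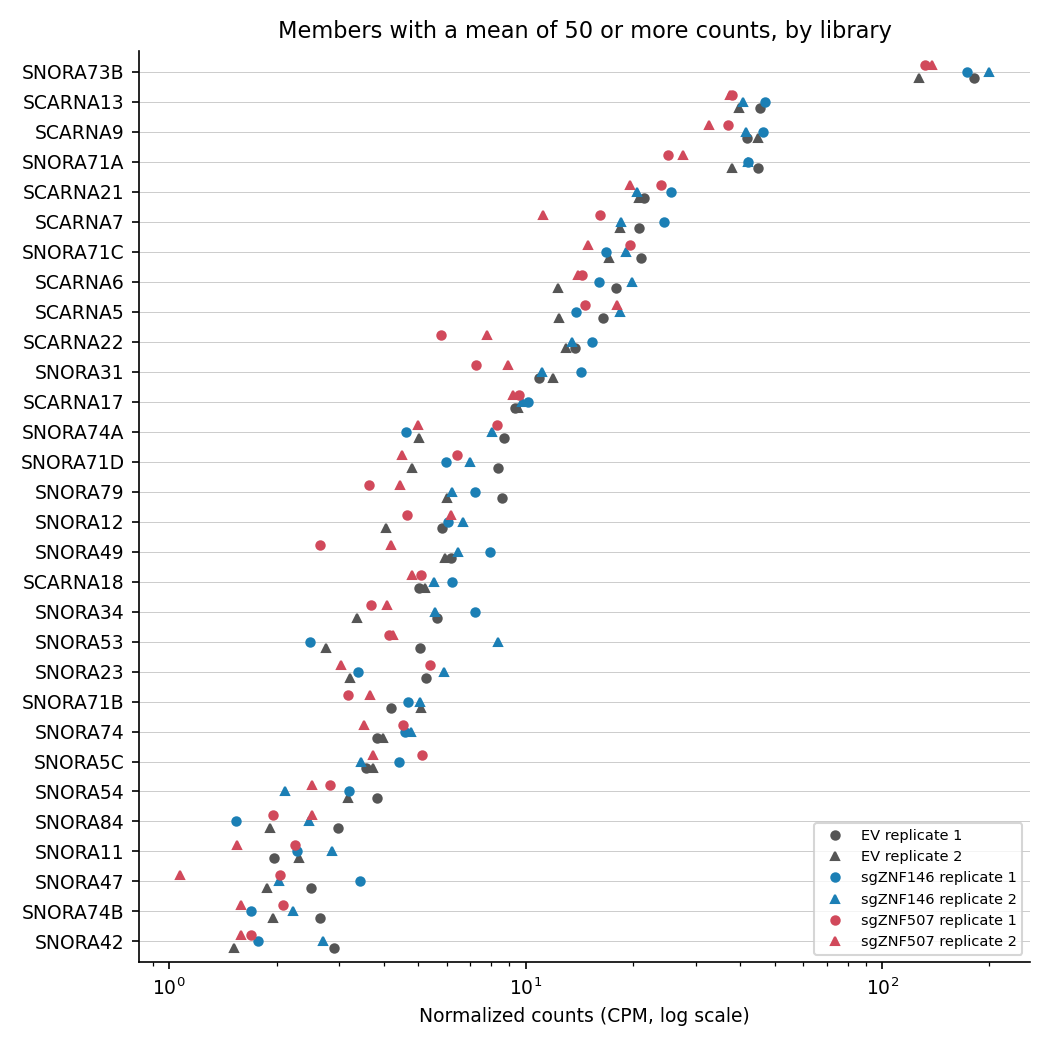
Normalized counts (CPM, log scale) of the 30 members with a mean of 50 or more counts, 1 row per member and 1 point per library, with circles for replicate 1 and triangles for replicate 2. SNORA73B lies between 127 and 200 CPM, above all other members, and both sgZNF507 points lie left of the other 4 in SNORA71A, SCARNA22, SNORA49, SNORA79, SNORA31 and SCARNA7, among others.

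Longer members had more counts. The 13 members of 200 bases or more had a median of 693 summed counts and held 58.8% of member counts, while the 116 shorter ones had a median of 61.5. SNORA73B, at 204 bases just past that cut, alone held 30.4% of member counts. Libraries were made from column-purified total RNA, a preparation known to keep short RNA poorly, so these levels are those of the library and not of the cell, and the part of length in them was not tested. Most members lay inside a host gene on the same strand, 103 in a protein-coding host and 13 in a long noncoding host, and 13 had none. Where an exon of another gene on the same strand covers a small RNA gene, reads of the 2 cannot be told apart. Among listed genes in hosts of at least 100 CPM, 22 of the 36 overlapped by such an exon were listed at 0 and their median was 0 counts, against 1 of 45 without overlap and a median of 92. The annotation used for this overlap is later than the gene models used for counting, and the counting options for overlapping genes are not given in the sources used here.

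**Figure D2:**
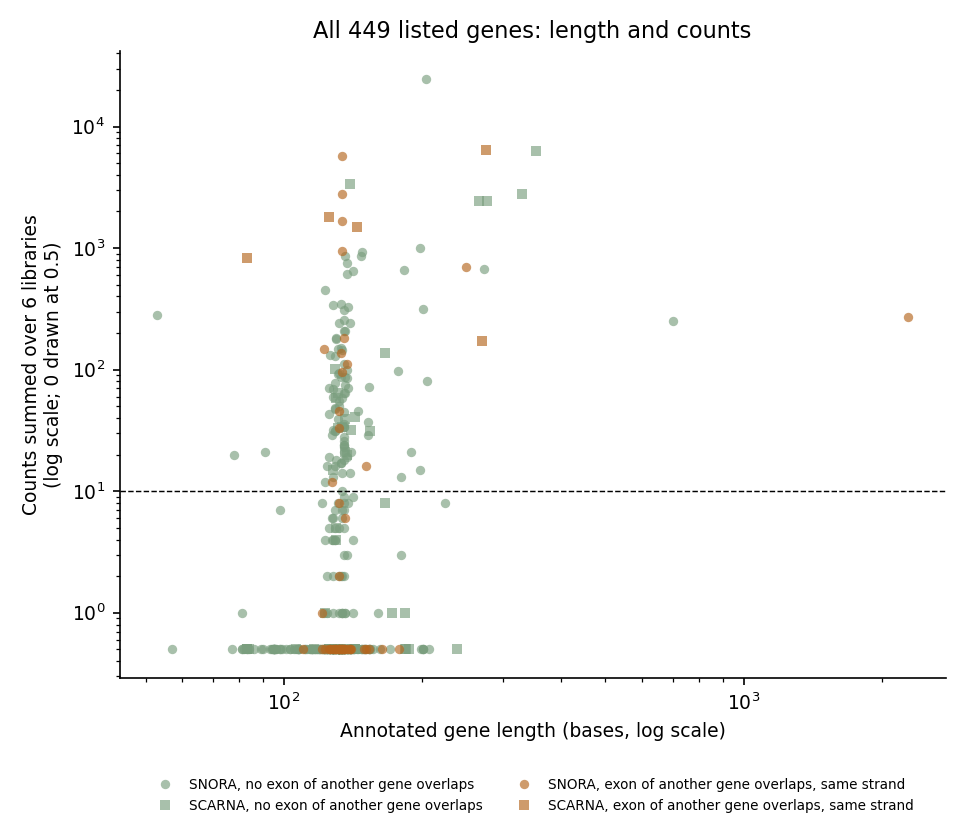
Counts summed over the 6 libraries against annotated length for all 449 listed genes, both on log scales, with 0 drawn at 0.5, squares for SCARNA and circles for SNORA genes, brown where an exon of another gene overlaps on the same strand and green where none does. The dashed line is the minimum of 10 counts, and 265 genes lie on the row drawn at 0.5.

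Guides against ZNF507 were compared with the empty vector first. In the fit over all 22010 genes that passed a filter on low counts, 77 members were tested (62 SNORA and 15 SCARNA) and 52, none with more than 50 summed counts, were not. SNORA71A and SCARNA22 fell and were called at an adjusted p under 0.05, as were 0.182% of all genes tested, or 0.0682% counting lower calls alone. No member was called higher (edgeR; 1 was higher at an unadjusted p under 0.05, and DESeq2 called 0 higher). At an unadjusted p under 0.05 there were 14 members, 13 of them lower, where 3.39% of all genes tested reached that level. Both sgZNF507 libraries lay below both EV libraries in 22 of 77 tested members, where 15.3% of all genes did so, and above them in 6, where 14% did.

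SNORA71A guides a pseudouridine in 18S ribosomal RNA. Its counts were 1117 and 1048 in EV, 1067 and 1059 in sgZNF146, and 579 and 799 in sgZNF507. Both sgZNF507 libraries were below the other 4, on the raw and on the normalized scale. The level was 41.4 ± 4.92 CPM in EV (SD, n = 2) and 26.4 ± 1.74 CPM in sgZNF507 (SD, n = 2), so it fell by 36.2% (log2 fold change -0.65, SE 0.10, edgeR adjusted p = 0.0181). The call was lost without EV replicate 1 (edgeR adjusted p = 0.266), without sgZNF507 replicate 1 (0.0855) and in a fit of the 4 libraries compared (0.0519). It held in 11 of 14 alternatives, over which the edgeR or DESeq2 adjusted p ran from 9.51e-08 to 0.266.

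SCARNA22 is a box H/ACA RNA made from an intron of NSD2, a histone methyltransferase gene. It had 343 and 359 counts in EV, 389 and 340 in sgZNF146, and 133 and 226 in sgZNF507. The sgZNF507 libraries were again the lowest pair, and the groups did not overlap. Its level was 13.4 ± 0.561 CPM in EV (SD, n = 2) and 6.79 ± 1.44 CPM in sgZNF507 (SD, n = 2), so it fell by 48.9% (log2 fold change -0.97, SE 0.15, edgeR adjusted p = 0.0206). It no longer passed without EV replicate 1 (edgeR adjusted p = 0.233), EV replicate 2 (0.123) or sgZNF507 replicate 1 (0.0777), and passed in the other 11 of 14 alternatives. Over the 14, the edgeR or DESeq2 adjusted p ran from 4.7e-08 to 0.233 and the log2 fold change from -1.20 to -0.78. In bulk RNA, less of an RNA per cell and fewer cells that make it cannot be told apart.

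**Figure D3:**
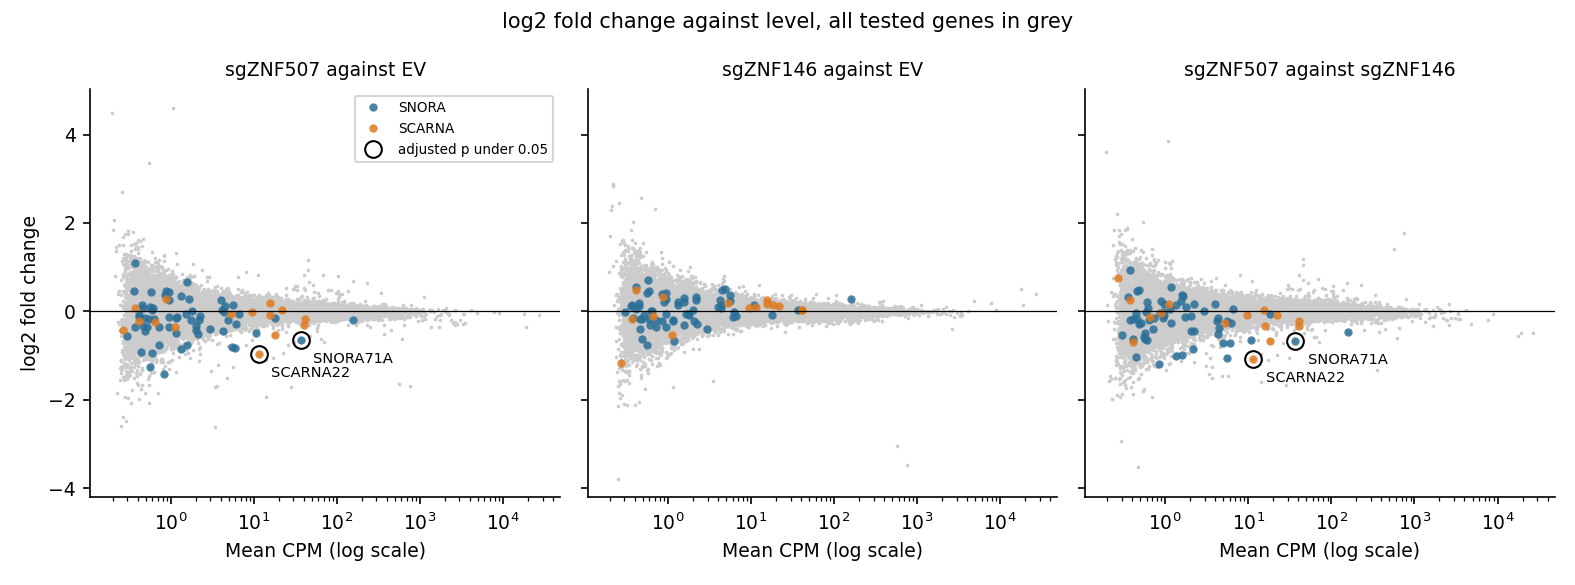
log2 fold change against mean CPM (log scale) in the 3 comparisons, with all 22010 tested genes in grey, tested SNORA members in blue, tested SCARNA members in orange and rings around members with an adjusted p under 0.05. SNORA71A and SCARNA22 carry a ring below 0 in the panels of sgZNF507 against EV and against sgZNF146, and no member does in that of sgZNF146 against EV.

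Among members with a mean of 50 or more counts, the next in size did not pass. SNORA79 had 214 and 166 counts in EV, 183 and 156 in sgZNF146, and 84 and 129 in sgZNF507 (log2 fold change against EV -0.84, SE 0.20, edgeR adjusted p = 0.320). SNORA49 had 154 and 164 counts in EV, 201 and 162 in sgZNF146, and 61 and 121 in sgZNF507 (log2 fold change -0.81, SE 0.21, edgeR adjusted p = 0.556). In both, the sgZNF507 pair was the lowest without overlap, as it was in 9 of the 30 members with a mean of 50 or more counts, whereas it was the highest in 0 of the 30. Over all 77 tested members it was the lowest in 15 and the highest in 2, SNORA80B and a SNORA57 copy (ENSG00000212567). Among all genes tested these shares were 7.26% and 6.47%. SNORA31 (ENSG00000253051) and SNORA73B had log2 fold changes of -0.49 (SE 0.15) and -0.19 (SE 0.12). At lower counts, with larger errors, 5 tested members lay beyond SNORA49 without passing, led by SNORA37 at -1.41 (SE 0.37, edgeR adjusted p = 0.661) with 34 and 25 counts in EV, 24 and 25 in sgZNF146, and 9 and 13 in sgZNF507. The other 4 were SNORA80 (-1.26), SNORA72 (-0.95, ENSG00000201944), SNORA19 (-0.92, ENSG00000207468) and SNORA76 (-0.86, ENSG00000253007). The largest value at higher counts in the other direction was SNORA5C at 0.26 (SE 0.20), from 89 and 103 counts under EV, beside 118 and 108 under sgZNF507. At lower counts the largest was a SNORA57 copy at 1.09, the 1 member higher at an unadjusted p under 0.05 (edgeR), which did not pass the adjusted threshold.

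The 4 SNORA71 paralogs are encoded in 1 host, the long noncoding RNA gene SNHG17, within a stretch of chromosome 20. Their sequences are between 83.0% and 90.2% identical over the best-matching stretch of each pair, of 133 to 135 aligned positions. That stretch leaves out much of SNORA71B, which is annotated at 272 bases. SNORA71A shares no run of 50 bases with any other listed gene. SNORA71C had 523 and 475 counts in EV, 427 and 480 in sgZNF146, and 451 and 434 in sgZNF507, so its groups overlapped (log2 fold change against EV -0.15, 95% interval -0.43 to 0.13). SNORA71D had 208 and 133 counts in EV, 152 and 176 in sgZNF146, and 148 and 130 in sgZNF507, also with overlap (-0.28, interval -0.75 to 0.20). SNORA71B was lower in both sgZNF507 libraries in CPM though not in raw counts, with 104 and 141 counts in EV, 119 and 127 in sgZNF146, and 73 and 106 in sgZNF507 (-0.44, interval -0.79 to -0.09), without passing the adjusted threshold. The interval of SNORA71A was -0.84 to -0.46. These intervals took a normal quantile, although the SE came from an F test with few degrees of freedom, so they are too narrow. They therefore cannot decide whether SNORA71A and SNORA71C differ, and the difference between paralogs itself was not tested. The host SNHG17 had 2751 and 2936 counts in EV, 2777 and 2669 in sgZNF146, with 2628 and 3065 in sgZNF507, and its value against EV was 0.02 on the log2 scale (SE 0.07). NSD2, which hosts SCARNA22, stood at -0.02 (SE 0.06). SNORA71A, SNORA71C, SNORA71D and SCARNA22 are wholly covered by exons of 1 or more host transcripts in the annotation used here, whereas SNORA71B is not, so host reads could be counted with the former 4, and that share was not tested.

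**Figure D4:**
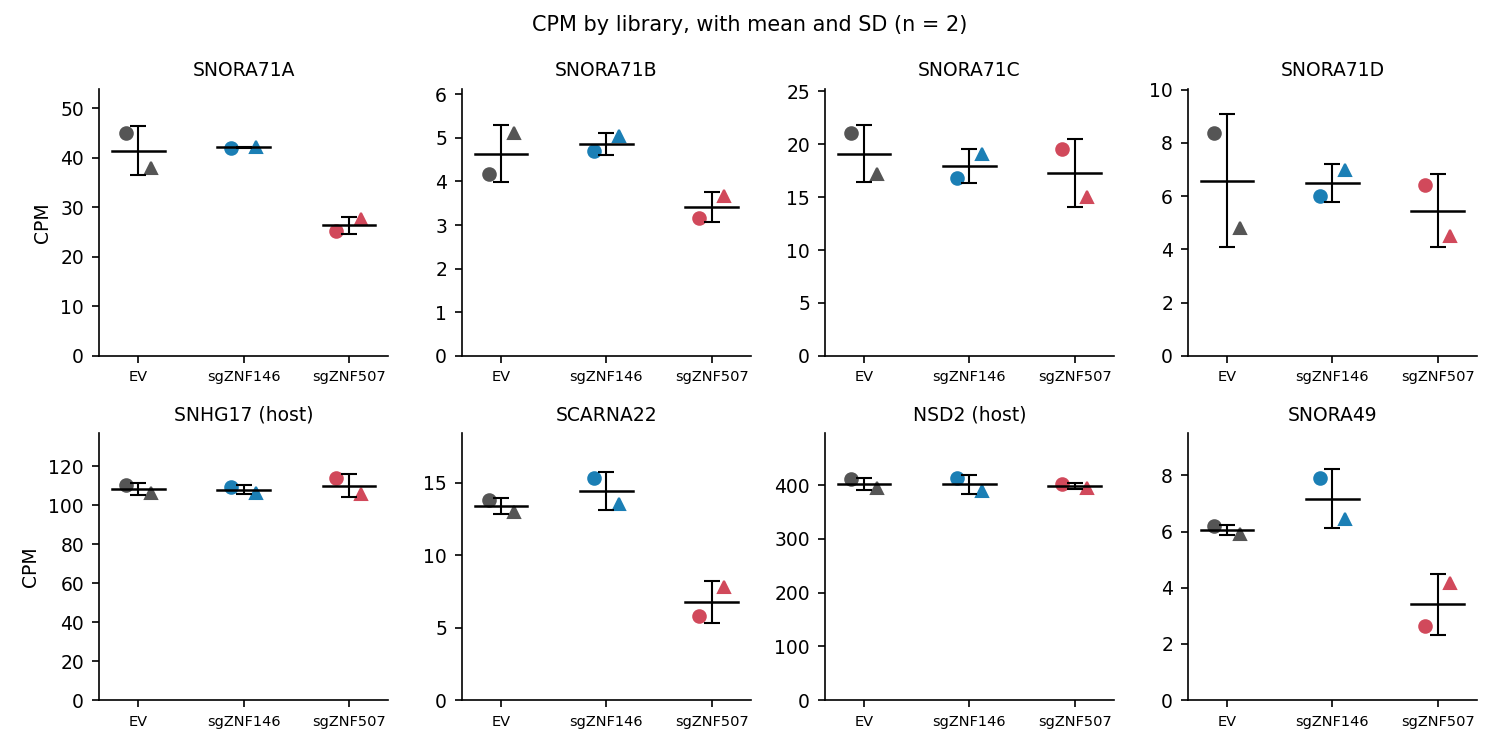
CPM by library (circles replicate 1, triangles replicate 2) with the mean and SD of each group (n = 2) for the 4 SNORA71 genes, their host SNHG17, SCARNA22, its host NSD2, and SNORA49. Both sgZNF507 points lie below all others in SNORA71A, SNORA71B, SCARNA22 and SNORA49, while the groups of the 2 hosts lie close together.

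Against sgZNF146, the same 2 members were lower in sgZNF507 and called, where 0.173% of all genes tested were called and 0.0682% were called lower. The comparison uses the same sgZNF507 libraries, so it does not repeat the result independently. SNORA71A stood at 42.1 ± 0.0338 CPM in sgZNF146 (SD, n = 2), and the log2 fold change was -0.67 (SE 0.10, edgeR adjusted p = 0.0140). SCARNA22 stood at 14.4 ± 1.28 CPM (SD, n = 2), and the log2 fold change was -1.08 (SE 0.15, edgeR adjusted p = 0.00957). Without sgZNF146 replicate 1 neither was called (edgeR adjusted p = 0.187 for both), and SNORA71A was also lost without sgZNF146 replicate 2 (0.125) and without sgZNF507 replicate 1 (0.0714). Over 14 alternatives the edgeR or DESeq2 adjusted p ran from 2.44e-08 to 0.187 for SNORA71A, called in 11, and from 3.15e-10 to 0.187 for SCARNA22, called in 13.

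In the same comparison 15 members, all of them lower, reached an unadjusted p under 0.05, where 4.03% of all genes tested did. Both sgZNF507 libraries were below both sgZNF146 libraries in 26 tested members (16.5% of all genes) and above them in 5 (15.5%). SNORA49 came next, at -1.05 (SE 0.20, edgeR adjusted p = 0.0925). SNORA34 stood at -0.71 (SE 0.23), SNORA79 at -0.72 (SE 0.20) and SNORA31 (ENSG00000253051) at -0.64 (SE 0.15). SNORA73B stood at -0.47 (SE 0.12, edgeR adjusted p = 0.524). DESeq2 called 3 members with all 6 libraries, adding SNORA49, and 3 with the 4 compared, adding SNORA73B. With 6 libraries it left 30 of the 77 without an adjusted p.

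Guides against ZNF146 gave no member called against EV (0% of all genes tested were called). By edgeR 2 members reached an unadjusted p under 0.05, where 2.43% of all genes did, and DESeq2 called 0. These were SNORA34, at 140 and 93 counts under EV, beside 183 and 140 under sgZNF146 (log2 fold change 0.52, SE 0.22), and SNORA73B (0.28, SE 0.12). The groups overlapped in both on the normalized scale, since SNORA34 had 5.62 and 3.36 CPM in EV and 7.21 and 5.56 in sgZNF146, and SNORA73B had 181 and 127 CPM in EV and 173 and 200 in sgZNF146. SNORA71A and SCARNA22 stood at 0.02 (SE 0.10) and 0.11 (SE 0.14). The 2 sgZNF146 libraries were above both EV libraries in 10 tested members, where 14% of all genes were, and below them in 4, where 14.6% were. At higher counts, the largest such values were SNORA12 at 0.37 (SE 0.20), SNORA74 (ENSG00000252213) at 0.26 (SE 0.18), SNORA49 at 0.25 (SE 0.19), SCARNA18 (ENSG00000252139) at 0.20 (SE 0.15) and SCARNA17 at 0.08 (SE 0.12).

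The tested scaRNAs can be read together, because several of them had high counts. In sgZNF507 against EV, 11 of 15 had a negative log2 fold change and 4 a positive one, with a median of -0.18, and 1, SCARNA22, was called. Negative values were found in 53 of all 77 tested members and in 11236 of the 22010 genes tested. SCARNA9, a guide for U2 small nuclear RNA, had 1037 and 1238 counts in EV, 1176 and 1045 in sgZNF146, and 850 and 947 in sgZNF507 (log2 fold change -0.32, SE 0.09, edgeR adjusted p = 0.943). SCARNA7 stood at 20.8 and 18.3 CPM in EV, 24.5 and 18.6 CPM in sgZNF146, and 16.1 and 11.2 CPM in sgZNF507 (-0.53, SE 0.17). In both the sgZNF507 pair was lowest in CPM, and neither passed in this fit. SCARNA13 stood at -0.18 (SE 0.10), with an exon of GLRX5 on the opposite strand, so its reads depend on strand being used in counting. It is also wholly covered on its own strand by exons of its host SNHG10, so host reads could be counted with it, and that share was not tested. SCARNA21 (ENSG00000252835) stood at 0.04 (SE 0.13), SCARNA6 at -0.08 (SE 0.16), SCARNA5 at 0.19 (SE 0.16), SCARNA17 at -0.01 (SE 0.12) and SCARNA18 (ENSG00000252139) at -0.05 (SE 0.16). The rest had means under 50 counts: SCARNA12 at -0.36 (SE 0.33), SCARNA1 at 0.27 (SE 0.33), SCARNA4 at -0.24 (SE 0.39), SCARNA20 at -0.21 (SE 0.50), SCARNA23 at 0.07 (SE 0.49) and SCARNA3 at -0.41 (SE 0.59).

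Summed over all 129 members, the level was 582.6 and 475.1 CPM in the EV libraries, 570 and 590.3 in sgZNF146, and 456.2 and 447.9 in sgZNF507. The sgZNF507 pair was the lowest, but EV replicate 2 lay nearer to it than to EV replicate 1. Group sums were 529 ± 76.1, 580 ± 14.4 and 452 ± 5.84 CPM (SD, n = 2 each), and the smallest two-sided p that an exact permutation test of 2 libraries against 2 can give is 0.333. Without SNORA73B the sums were 401.8 and 348 CPM in EV, 396.9 and 390.6 in sgZNF146, and 324.4 and 309.6 in sgZNF507. The median log2 fold change of tested members was -0.17 in sgZNF507 against EV, 0.04 in sgZNF146 against EV and -0.16 in sgZNF507 against sgZNF146, beside medians within 0.01 of 0 over all genes tested. Without EV replicate 1 the first of these was -0.01, and without EV replicate 2 it was -0.28.

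Other small RNA classes were read in the same libraries. The 83 box C/D snoRNA genes with 10 or more counts summed to 692.7 and 507.9 CPM in EV, 764 and 590.9 in sgZNF146, and 318 and 369.3 in sgZNF507, and 1 of the 53 tested was called lower in sgZNF507 against EV, with a median log2 fold change of -0.08. The 254 spliceosomal small nuclear RNA genes summed to 175.4 and 140.6 CPM in EV, 154.2 and 142.2 in sgZNF146, and 121.2 and 109.3 in sgZNF507, with 2 of 58 tested called lower and a median of -0.31. Both sums were thus lowest in the sgZNF507 libraries, as in the H/ACA genes. Both sgZNF507 libraries lay below both EV libraries in 20.8% of tested box C/D and 41.4% of tested spliceosomal genes, beside 28.6% of tested members. They lay above both EV libraries in 9.43%, 6.9% and 7.79% of these. Whether small RNA as a whole was recovered less in the sgZNF507 libraries was not tested.

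Host genes were set beside the RNAs they carry. With 1 host taken for each member, protein-coding before noncoding, 103 hosts were all tested and 0 were called in any of the 3 comparisons by edgeR or DESeq2, with 4 at an unadjusted p under 0.05 in sgZNF507 against EV, 0 in sgZNF146 against EV and 3 in sgZNF507 against sgZNF146. Their median log2 fold change was -0.02 in sgZNF507 against EV, and their summed level was 18211.5 CPM in EV and 17820.9 CPM in sgZNF507. Both sgZNF507 libraries lay below both EV libraries in 23.3% of hosts and above them in 11.7%. Across 70 tested members with a tested host, the log2 fold changes of member and host had Pearson's r of -0.08 and Spearman's rho of -0.09 in that comparison. Some of these pairs share a host. The member was further from 0 than its host in 60 of the 70 pairs. The count was 63 in sgZNF146 against EV and 61 in sgZNF507 against sgZNF146. Members had larger errors than hosts, with a median SE of 0.317 against 0.0762 in sgZNF507 against EV. These counts therefore cannot separate a change of the member from its error. Only 2 members, SNORA73B and a SNORA26 copy, lay in a second host. SNORA73B was set against RCC1 (log2 fold change 0.03, SE 0.06, in sgZNF507 against EV), but also lies in the noncoding gene SNHG3, which is not among the 103. SNHG3 stood at -0.18 (SE 0.10) in sgZNF507 against EV, 0.08 (SE 0.10) in sgZNF146 against EV and -0.26 (SE 0.10) in sgZNF507 against sgZNF146, and was not called by edgeR, beside -0.19, 0.28 and -0.47 for SNORA73B. SCARNA17 and SCARNA18 (ENSG00000252139) lie wholly in exons of SNHG22, a host at 0.61 mean CPM whose log2 fold change was -0.69 (SE 0.41), while the 2 scaRNAs stood near 0.

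**Figure D5:**
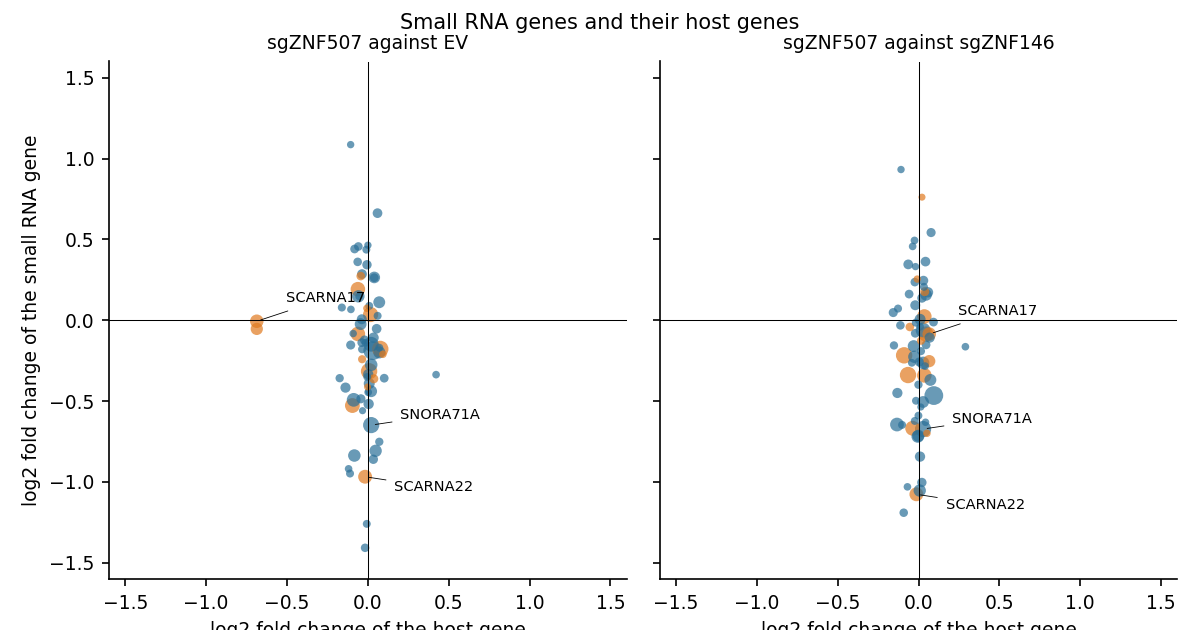
log2 fold change of each tested member (vertical axis, orange for SCARNA and blue for SNORA, larger points for higher mean CPM) against that of its host gene (horizontal axis), in sgZNF507 against EV and against sgZNF146. Most hosts lie in a narrow band around 0, with SNHG22 at -0.69 and ANKRD17-DT at 0.42 outside it against EV, while members spread along the vertical axis.

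The proteins of the H/ACA particle were read in the same fit. Of 28 listed genes of the core particle, its assembly, Cajal bodies, 3′ end processing and telomerase, all 28 were tested and 0 were called in any comparison by edgeR or DESeq2. At an unadjusted p under 0.05 edgeR gave 0, 1 and 0 of them in sgZNF507 against EV, sgZNF146 against EV and sgZNF507 against sgZNF146. DKC1, the pseudouridine synthase, stood at -0.02 (SE 0.07) in sgZNF507 against EV, NOP10 at 0.06 (SE 0.09), NHP2 at 0.00 (SE 0.06) and GAR1 at -0.15 (SE 0.09). TERC, the telomerase RNA, ends in an H/ACA domain bound by the same proteins and is no member by symbol. It had 1880 and 2243 counts in EV, 2345 and 1902 in sgZNF146, and 2107 and 2081 in sgZNF507, with overlap between all groups.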

How the data were processed

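Total RNA of HEK293 cells was sequenced after ribosome depletion in strand-specific libraries, as paired reads. The authors clipped reads with the Fastx Toolkit, removed ribosomal reads with Bowtie, aligned to hg19 (GRCh37) with TopHat2 and counted genes with featureCounts on Ensembl models. The deposited values are raw counts per gene, neither normalized nor pooled, and without molecular identifiers. The strand and overlap options of the counting are not given in the sources used here.

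Groups and replicates were taken from the sample titles. Symbols matched 96.1% of gene identifiers, and coordinates, hosts, exons and sequences come from a GENCODE annotation on GRCh37. A host is a gene on the same strand that spans the whole member, and annotated member sequences were the same as the transcript in 128 of 129. Counts were tested with edgeR 4.0.16 (R 4.3.3) in 1 fit of all 6 libraries with TMM normalization, filterByExpr, glmQLFit and glmQLFTest, and p-values were adjusted by Benjamini-Hochberg over the 22010 genes tested (threshold 0.05). SE values were derived from the F statistic, and intervals from these SE values with a normal quantile. CPM are counts scaled to a TMM-adjusted library size of 1000000. Replicates are labelled as biological duplicates. The p-values rest on a spread between replicates that was pooled over the 3 groups, each with 2 libraries, and moderated across genes (prior degrees of freedom 9.51). A chi-square statistic per degree of freedom between replicates of 7.04 to 10.7 showed that replicate files differ by more than sampling noise.

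The steps were tested on simulated data: in a simulated sgZNF507 against EV comparison of 21550 genes, edgeR recovered 96 of 100 genes changed 2-fold and 78 of 100 changed 1.5-fold, with 9 other calls. The changed genes all had a mean of 50 or more counts, as 30 of the 77 tested members do. Each gene was drawn with the spread of the trend at its level and none of its own. Recovery at lower counts, or in genes with more spread than the trend, was not simulated. Alternatives were DESeq2 1.42.0 with 6 or 4 libraries, edgeR with 4, DESeq2's size factors, scaling to nuclear protein-coding genes, no low-count filter or a minimum of 10 counts in each library, a replicate block and leaving out each library. Members and gene lists were chosen with earlier results of these data known. Genes named are called members, the 5 largest changes in each direction at a mean of 50 or more counts without overlap, the 12 highest by CPM and by CPM per kilobase, every tested SCARNA gene, the members at the count minimum, and the SNORA71 paralogs, SNORA53, SNORA57, SNORA80B, the lower-count members beyond SNORA49, SNHG3 and TERC, which were added after values were seen. Figures were drawn with matplotlib 3.10.9.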

Additional observations from a re-analysis of the deposited data

How the results depend on the processing

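The number of members called in sgZNF507 against EV, 2 with the main settings, was 5 with no filter on low counts (with SNORA49, SNORA79 and SCARNA7 added), 1 with edgeR on the 4 libraries compared (SCARNA22), 6 with the replicate block and between 0 and 2 when 1 library was left out. In sgZNF507 against sgZNF146 it was 8 with no filter, 9 with the replicate block and between 0 and 3 with 1 library left out, in fits that assume a lone library to vary like the other groups. In sgZNF146 against EV it was 0 under every alternative tried. Calls over all genes changed too: in sgZNF507 against EV the share of all genes called was 0.182% with the main settings, 0.274% with no filter and 0.55% with the block, and in sgZNF507 against sgZNF146 it was 0.173%, 0.304% and 0.891%. The shares of tested members were 2.6%, 3.88% and 7.79%, and 2.6%, 6.2% and 11.7%. The labels do not say that replicate numbers mark a shared batch, and with 2 pairs per comparison the pairing cannot be settled. The deviations of same-numbered libraries correlated across genes at 0.236, 0.289 and 0.266 for the 3 pairs of groups, and the block is therefore given as an alternative only. All member calls under the block were lower. Against EV they were SNORA71A, SCARNA22, SNORA49, SNORA79, SCARNA7 and SCARNA9, the last with an edgeR adjusted p of 0.015, and against sgZNF146 the same 6 with SNORA31, SNORA34 and SNORA73B.

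With 1 library left out, the median log2 fold change of tested members ranged from -0.278 to -0.0103 in sgZNF507 against EV, from -0.00437 to 0.15 in sgZNF146 against EV and from -0.27 to -0.15 in sgZNF507 against sgZNF146, and the log2 ratio of summed levels from -0.37 to -0.0718, from -0.00607 to 0.29 and from -0.39 to -0.34. Leaving out SNORA73B, an alternative chosen after seeing the data, gave ratios of -0.24, 0.07 and -0.31. No log2 fold change of a called member changed sign in a comparison in which it was called. Uncalled values changed sign with 1 library left out, the cause of which was not tested. In sgZNF507 against EV the ranges were -0.43 to 0.0915 for SNORA73B, -0.12 to 0.19 for SCARNA21, -0.35 to 0.0495 for SNORA71C, -0.34 to 0.21 for SCARNA6, -0.00507 to 0.41 for SCARNA5, -0.63 to 0.17 for SNORA71D, -0.10 to 0.43 for SNORA12, -0.53 to 0.21 for SNORA34, -0.15 to 0.22 for SNORA74 and -0.90 to 0.0931 for SCARNA12. SNORA71A ranged from -0.10 to 0.15 in sgZNF146 against EV, and SNORA71C from -0.26 to 0.14 in sgZNF507 against sgZNF146. With 2 libraries a group and a median SE of 0.317 over tested members, changes of the size seen in most members could not be told from 0.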
